A study of Mus musculus with 36 samples.

Results

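Nuclear-encoded genes of oxidative phosphorylation were read out across 8 groups of sorted mouse bone marrow plasma cells. They were chosen by symbol: all protein-coding genes whose GRCm38 symbol begins with Ndufa, Ndufb, Ndufc, Ndufs, Ndufv, Uqcr, Cox4, Cox5, Cox6, Cox7, Cox8 or Atp5, together with Sdha, Sdhb, Sdhc, Sdhd and Cyc1. This gave 95 of the 54203 genes counted. By role these were 7 core subunits of complex I, 29 other complex I genes, 8 Ndufaf genes, 4 genes of complex II, 9 of complex III, 20 of complex IV (Ndufa4 and Ndufa4l2 included) and 18 of complex V. The choice by symbol took in some genes that are not subunits: the Ndufaf genes encode factors that assemble complex I, Cox7a2l helps to join complexes III and IV, and Atp5s is a coupling factor of complex V. It left out 13 genes with matching symbols that are not protein-coding, most of them processed pseudogenes. Their reads can be confused with those of Uqcrh, Cox6c, Ndufa11, Atp5l, Atp5k, Ndufb4, Ndufs6, Ndufab1 and Atp5c1, whose values are uncertain.

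Oxidative phosphorylation takes place in the inner mitochondrial membrane. Complexes I and II pass electrons from NADH and succinate to ubiquinone, complex III passes them on to cytochrome c, and complex IV hands them to oxygen. Complexes I, III and IV pump protons on the way, and complex V, the ATP synthase, uses the returning protons to make ATP. Complex II is wholly nuclear-encoded, while the other complexes each hold some subunits made from mitochondrial DNA. Plasma cells are B lineage cells that secrete antibodies, and long-lived plasma cells of the bone marrow are known to depend on mitochondrial respiration.

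The mice model subgroups of multiple myeloma, which is a plasma cell cancer. In the Ccnd1 (D) cohort the groups were Ccnd1-Ikk2ca (6 libraries), Ikk2ca(D), Ccnd1 and Control(D) (4 each), and in the MMSET (M) cohort they were MMSET-Ikk2ca (6), Ikk2ca(M), MMSET and Control(M) (4 each). All 36 libraries came from C57/BL6 mice and held 2000 cells positive for a reporter and for the surface proteins CD138 and TACI. Ccnd1 encodes the cell cycle protein cyclin D1, Ikk2 is a kinase that activates NF-kB (gene Ikbkb), and MMSET is a histone methyltransferase (mouse gene Nsd2). The promoter or Cre that drives the transgenes, further alleles that the controls may share, and the age of the mice are not given in the sources used here. Whether each library of a group is a separate animal is not given in the labels, and p-values then reflect only the spread among these libraries, which may be technical.

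Libraries held 54.1 to 97.6 M reads, of which 43.9% to 73.0% came from immunoglobulin genes, and the chosen genes had 203651 to 472258 reads per library. Levels are given in CPM, read counts scaled to the size of the library after its adjustment by a TMM factor over all 36 libraries. TMM is the normalization of edgeR, so these levels are not plain counts over library size. Fold changes are on the log2 scale, with the standard error (SE) and the p-value of edgeR adjusted over all genes tested. A gene is said to rise or fall where this adjusted p was under 0.05. Shares of all genes that changed are those of edgeR with no library left out, also beside counts from DESeq2 or from other fits. The targeted genes stood where the labels put them: Ccnd1 at 281 to 983 CPM in Ccnd1-Ikk2ca and 258 to 381 in Ccnd1, against 0.609 to 1.29 in Control(D), and Nsd2 at 174 to 605 CPM in MMSET-Ikk2ca and 427 to 824 in MMSET, against 1.87 to 4.41 in Control(M). Ikbkb stood at 42.1 to 83.4 CPM in the Ikk2ca groups of the D cohort, against 19.4 to 39.0 in Control(D), and at 43.7 to 71.9 CPM in those of the M cohort, against 16.2 to 34.2 in Control(M). All 8 plasma cell markers had reads in every group. Xist, which marks female cells, exceeded 10 CPM in 3 of 6 Ccnd1-Ikk2ca, 4 of 4 Ikk2ca(D), 2 of 4 Ccnd1 and 1 of 4 Control(D) libraries, and in 3 of 6 MMSET-Ikk2ca, 4 of 4 Ikk2ca(M), 3 of 4 MMSET and 2 of 4 Control(M) libraries.

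Of the 95 genes, 92 could be tested in the D cohort and 91 in the M cohort. Cox8b and Cox8c, the muscle and testis forms of subunit 8 of complex IV, had 0 reads in every library. A second gene model named Atp5o had 3.66 reads in all libraries together, and Cox7a1, the muscle form of subunit 7a, was too low to test in the M cohort. Per length, the most abundant transcripts were those of Ndufa1 (mean of 389 TPM, a length-scaled share of all transcripts, over 36 libraries), Cox4i1 (216), Uqcrq (150), Atp5mpl (111) and Ndufa3 (109). TPM divides by an effective length that is short for several of these transcripts (169 bases for Ndufa1), which makes their TPM uncertain. At the low end stood the complex IV isoform Cox4i2 (2.32 TPM), the assembly factor Ndufaf4 (1.66), Cox7b2 (0.185) and Cox7a1 (0.140).

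In Ccnd1-Ikk2ca plasma cells the transcripts of all complexes stood higher than in Control(D). The summed level of complex I subunits was 1783 ± 208 CPM in Ccnd1-Ikk2ca, against 1260 ± 81.2 CPM in the Control(D) libraries, a ratio of 1.42 (SD, n = 6 and 4). Complex III stood at 626.9 ± 52.7 CPM in Ccnd1-Ikk2ca against 435.6 ± 29.8 in Control(D) (ratio 1.44). In complexes I, III, IV and V every Ccnd1-Ikk2ca library lay above every control library, and in complex II 5 of 6 did. Complex IV stood at 1032 ± 104 CPM in Ccnd1-Ikk2ca against 788.0 ± 40.4 in Control(D) (ratio 1.31). Complex V stood at 1457 ± 189 CPM against 1166 ± 32 (ratio 1.25), and complex II at 276.7 ± 17.3 against 232.1 ± 20.6 (ratio 1.19). The complex II sum is dominated by Sdha, which was level between the groups, as described below. In these bulk samples, fewer cells of a type and less RNA per cell cannot be told apart. Over all 95 genes the sum was 5233 ± 520 CPM in Ccnd1-Ikk2ca, 4656 ± 459 in Ikk2ca(D) and 4374 ± 183 in Ccnd1, against 3931 ± 178 in Control(D). In the M cohort it was 4588 ± 208 CPM in MMSET-Ikk2ca, 5183 ± 338 in Ikk2ca(M) and 4776 ± 511 in MMSET, against 4200 ± 245 in Control(M).

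**Figure D1:**
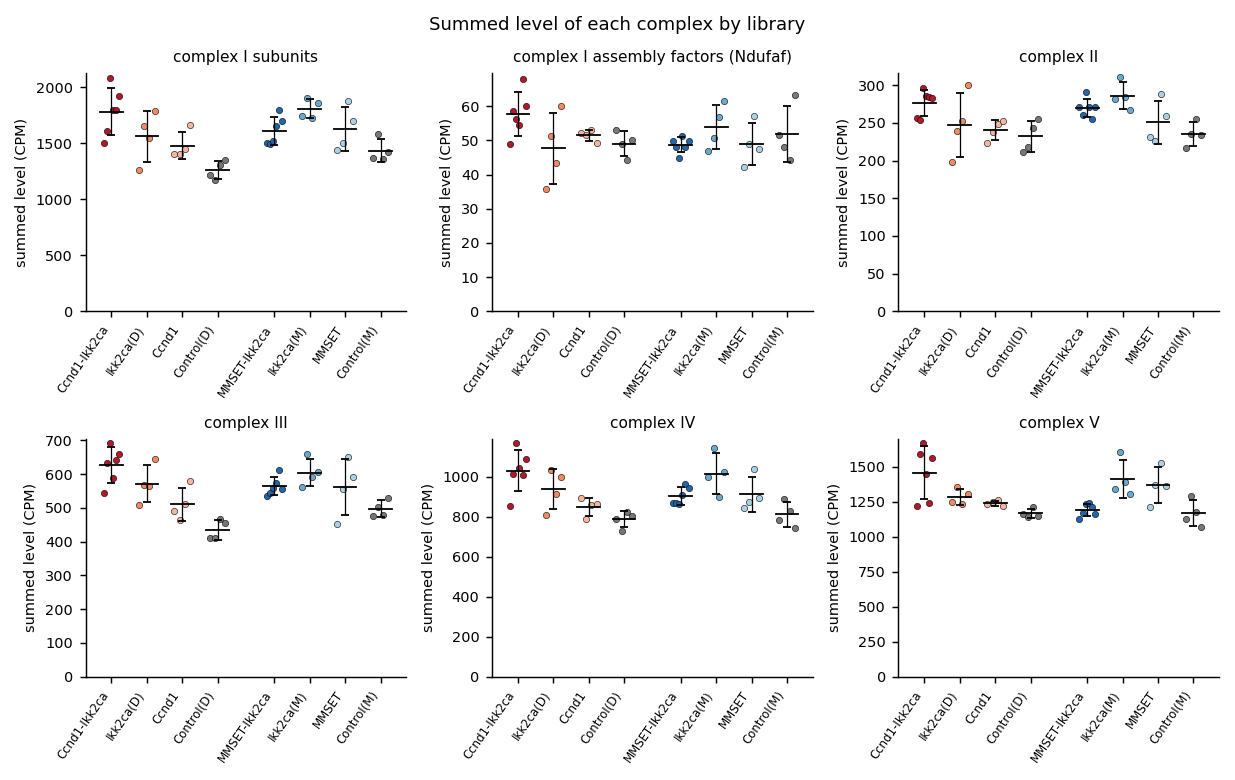
Summed CPM of complex I subunits, complex I assembly factors and complexes II to V in each of the 36 libraries (1 point each), by group, with the group mean as a line and the SD as a bar. Complex I subunits stood at 1783 ± 208 CPM in Ccnd1-Ikk2ca, against 1260 ± 81.2 CPM in Control(D), and at 1810 ± 85.5 CPM in Ikk2ca(M) and 1434 ± 104 CPM in Control(M).

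Gene by gene, 38 of the 92 tested rose in Ccnd1-Ikk2ca against Control(D) and 0 fell. This is 41.3% of them, against 5.83% of all 15323 genes that rose and 11.1% that changed either way. Their median log2 fold change was 0.45, with the middle of the distribution between 0.29 and 0.64, and the median of all genes was 0.02. The fold change was positive for 83 of 92, or 90.2%, against 51.2% of all genes. The rises were spread over the complexes: 3 of 7 complex I core subunits, 12 of 29 other complex I subunits, 3 of 4 complex II genes, 5 of 9 complex III genes, 7 of 18 complex IV genes and 8 of 17 complex V genes. The 8 Ndufaf assembly factors had 0 rises and a median of 0.31. In each group by role, the gene of smallest p is given by library below. A lack of overlap in such a gene follows in part from this choice.

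In complex I, Ndufv1, the subunit that binds NADH and takes its electrons, rose by 0.64 (SE 0.15, adjusted p = 0.0085). Ndufv1 (chromosome 19, 4007384 to 4012806, minus strand, GRCm38) stood at 57.0 to 70.4 CPM in Ccnd1-Ikk2ca (median 62.1), against 37.9, 39.3, 41.3 and 43.5 CPM in Control(D). The groups did not overlap. Its neighbour in the peripheral arm, the iron-sulfur subunit Ndufv2, rose by 0.55 (SE 0.14, adjusted p = 0.0165). Among the other subunits Ndufa1, a small membrane-anchored protein encoded on the X chromosome (37187588 to 37191163, minus strand), had 169 to 293 CPM in Ccnd1-Ikk2ca (median 200.2), against 104, 106, 116 and 128 CPM in Control(D), again without overlap. It rose by 0.93 (SE 0.20, adjusted p = 0.00612), and Ndufb3 of the membrane arm by 0.68 (SE 0.15, adjusted p = 0.00817). The core subunit of the smallest change was Ndufs8, which carries iron-sulfur clusters, at 44.3 to 70.1 CPM in Ccnd1-Ikk2ca and 47.1 to 63.5 CPM in Control(D).

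The assembly factors followed their own values. Ndufaf4, which works with Ndufaf3 early in complex I assembly, had 8.18 to 13.8 CPM in Ccnd1-Ikk2ca (median 9.96), against 4.80, 5.17, 5.36 and 7.68 CPM in Control(D). Its log2 fold change of 0.84 (SE 0.28) missed the threshold (adjusted p = 0.0574), although the groups did not overlap. Ndufaf3 stood at 9.57 to 15.8 CPM in Ccnd1-Ikk2ca and 7.91 to 14.4 CPM in Control(D), with a log2 fold change of 0.05.

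Complex II moved in its membrane anchors and its iron-sulfur subunit, and not in its catalytic flavoprotein. Sdhc, a membrane anchor that helps to form the ubiquinone site (chromosome 1, 171127165 to 171150603, minus strand), had 29.4 to 38.7 CPM in Ccnd1-Ikk2ca (median 36.9), against 19.5, 21.6, 24.4 and 25.8 CPM in Control(D). It rose by 0.63 (SE 0.15, adjusted p = 0.0129), and the other anchor, Sdhd, by 0.54 (SE 0.15, adjusted p = 0.0243). Sdhb, the iron-sulfur subunit, also rose, while Sdha had a log2 fold change of -0.08 and did not pass the test.

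In complex III, Uqcrfs1, the Rieske iron-sulfur protein, rose by 0.76 (SE 0.14, adjusted p = 0.00185). Uqcrfs1 (chromosome 13, 30540308 to 30545362, minus strand) had 69.2 to 88.1 CPM in Ccnd1-Ikk2ca (median 83.2), against 39.2, 46.1, 46.5 and 57.7 CPM in Control(D), and every Ccnd1-Ikk2ca library lay above every control. The small subunit Uqcrb, on the same chromosome, rose by 0.93 (SE 0.19, adjusted p = 0.00466). Uqcrq, Uqcrh and Uqcrc2 also rose.

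In complex IV the gene of smallest p was Cox5b, a nuclear subunit on the matrix side that binds zinc (chromosome 1, 36691449 to 36693681, plus strand). It had 43.6 to 71.4 CPM in Ccnd1-Ikk2ca (median 60.4), against 34.6, 35.3, 37.4 and 37.7 CPM in Control(D), with no overlap, and rose by 0.68 (SE 0.13, adjusted p = 0.00349). Cox7c, a small membrane subunit, rose by 0.69 (SE 0.17, adjusted p = 0.0149), and Cox4i1, Cox6b1, Cox6c, Cox7a2 and Cox7a2l rose as well. Ndufa4, once counted with complex I and now known as a complex IV subunit, stood at 64.0 to 86.4 CPM in Ccnd1-Ikk2ca and 78.2 to 87.2 CPM in Control(D), with a log2 fold change of -0.06 (adjusted p = 0.856).

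The gene of smallest p of all 92 was Atp5mpl, a small membrane protein of the ATP synthase (chromosome 12, 111961375 to 111966977, minus strand). It had 31.1 to 66.7 CPM in Ccnd1-Ikk2ca (median 46.5), against 20.8, 21.8, 22.1 and 27.4 CPM in Control(D), and rose by 1.04 (SE 0.17, adjusted p = 0.00109). Atp5e, the epsilon subunit of the rotor stalk, rose by 0.67 (SE 0.16, adjusted p = 0.0114). All 3 genes for the c subunit of the rotor ring rose: Atp5g1 by 0.63 (adjusted p = 0.0328), Atp5g2 by 0.74 (adjusted p = 0.0433) and Atp5g3 by 0.55 (adjusted p = 0.0164). Atp5b, the catalytic beta subunit, rose by 0.39, whereas its partner in the catalytic head, the alpha subunit Atp5a1, had a log2 fold change of -0.05. The lowest value in complex V was that of the coupling factor Atp5s, at -0.77 (SE 0.47, adjusted p = 0.332).

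**Figure D2:**
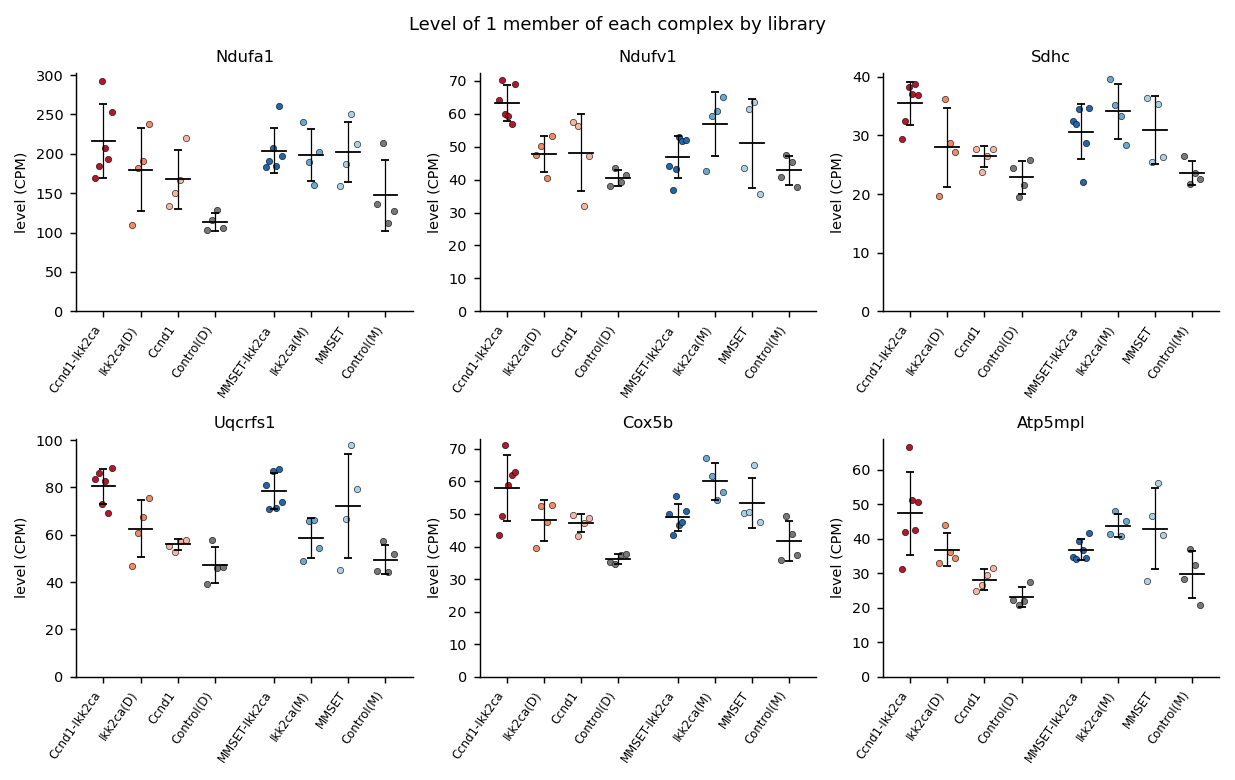
CPM of Ndufv1, Ndufa1, Sdhc, Uqcrfs1, Cox5b and Atp5mpl in each library (1 point each), by group, with the group mean as a line and the SD as a bar. Each was chosen as the gene of smallest p in its group by role in Ccnd1-Ikk2ca against Control(D). That all Ccnd1-Ikk2ca points lie above all Control(D) points in these 6 genes follows in part from this choice. For Uqcrfs1 they stood at 69.2 to 88.1 CPM against 39.2 to 57.7 CPM.

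How many genes rose depended on single libraries: 13 rose without Control(D) replicate 2, 17 without Control(D) replicate 1 and 22 without Ccnd1-Ikk2ca replicate 3, and 22 with replicates 1 to 4 of each group. The shares of all genes in these fits are not given, so a drop particular to these genes cannot be told from a wider one. The rises of Ndufv1, Ndufv3, Ndufa1, Ndufb3, Uqcrfs1, Uqcrb, Uqcrq, Cox5b, Atp5mpl and Atp5e, 10 of the 38, passed with any 1 of the 18 libraries left out, while the other 28, among them all 3 complex II genes that rose and Cox4i1, Cox6b1, Cox6c, Cox7a2, Cox7a2l, Cox7c, Ndufv2, Uqcrh, Uqcrc2, Atp5b, Atp5g1, Atp5g2 and Atp5g3, missed the threshold in at least 1 such fit.

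Several measures moved with these rises, and their part in the result was not tested. Short transcripts stood higher in general: among all genes with a transcript shorter than 497 bases, the median of the 92, the median log2 fold change was 0.23 over 1321 genes. Across the 92 genes the log2 fold change went with effective length at a Spearman rho of -0.35, and across all genes, which are not independent replicates, at -0.10. Genes of cytosolic ribosomal proteins rose more widely, 55 of 81 with a median of 0.68, against 5.83% of all genes that rose. Markers of other blood cells had lower sums in Ccnd1-Ikk2ca, with ranges that overlap in part: the summed level of 8 B cell markers was 182 to 267 CPM, against 329 to 447 in Control(D), and that of 10 T and NK cell markers was 1.27 to 5.92 CPM, against 30.4 to 51.0. Summed markers of 9 neutrophil genes stood at 0.899 to 207 CPM against 53.9 to 510, of 9 monocyte and macrophage genes at 29.7 to 123 against 104 to 176, and of 8 erythroid genes at 0.140 to 1.84 against 1.57 to 5.97. The defining markers Cr2 of B cells, Cd8a, Ncr1 and Klrb1c of T and NK cells and Alas2 and Car1 of erythroid cells were at 0 in Ccnd1-Ikk2ca, and Ncr1, Klrb1c and Alas2 were also at 0 in Control(D). Of the 8 plasma cell markers 4 fell and the others did not, where 11.1% of all genes changed either way. Their summed level was 7523 to 19494 CPM in Ccnd1-Ikk2ca against 54145 to 99913 in Control(D). Such a sum follows its most abundant genes and does not describe each marker. Jchain, the joining chain of secreted antibodies, was at -2.97 and Mzb1, a chaperone of antibody secretion, at -1.59.

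**Figure D3:**
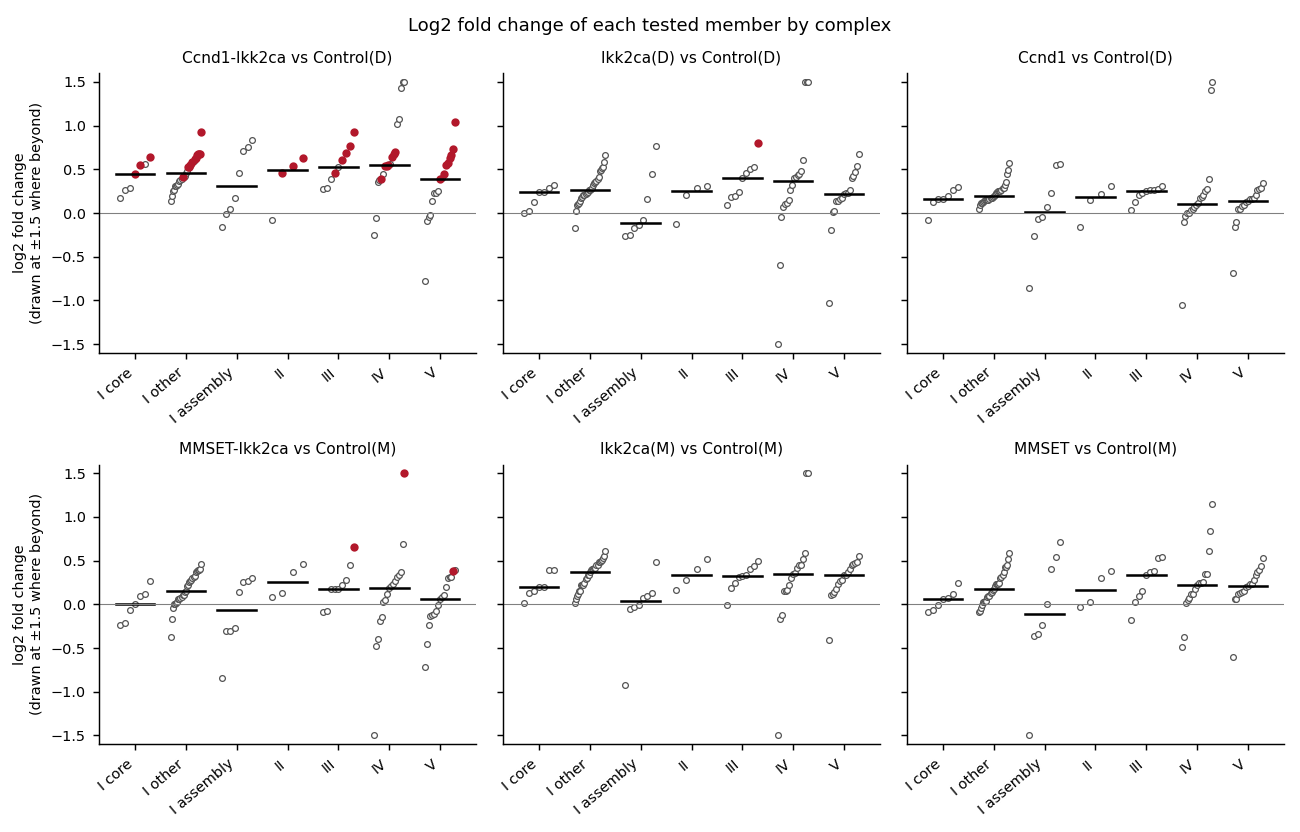
Log2 fold change of each gene tested (1 point each) against the cohort's control, grouped by role, in 6 panels for the 6 transgenic groups. Filled red points passed an adjusted p of 0.05, black lines are medians, and points beyond 1.5 in size are drawn at 1.5. The Ccnd1-Ikk2ca panel holds 38 red points and the MMSET-Ikk2ca panel holds 3.

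The sequences before these genes were searched for motifs of factors known to drive nuclear genes of mitochondrial proteins. RefSeq windows of GRCm38.p6 that run from 250 bases before to 50 bases after the start were found for 76 of the 95 genes and compared with those of all 27025 genes in the table. The NRF1 motif GCGCATGC, read on both strands like the others, occurred at 12 of 76 genes, or 15.8%, against 3.05% of all genes. The ETS motif CCGGAAG, bound by the GABP factor, occurred at 18 (23.7% against 9.93%). YY1's AAGATGG occurred at 12 (15.8% against 7.28%), but in the 250 bases before the start its share was 1.32%, against 5.18% of all genes. The SP1 motif GGGCGG occurred at 35 (46.1% against 38.2%). Among protein-coding genes alone the shares were 3.94%, 12.9%, 7.18% and 49.2%, so the SP1 share of these genes was not above that background. The windows of these genes also had more G and C, with a median of 58.3% against 52.7% of all windows. Within the set, described without a test, genes with any of the NRF1, ETS or YY1 motifs had a median log2 fold change of 0.42 in Ccnd1-Ikk2ca against Control(D) (35 genes) and those without 0.47 (40 genes), whereas genes with the SP1 motif had a median of 0.53 (35 genes) and those without 0.41 (40 genes).

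For each group of subunits, the stretch before the gene is shown for the gene of smallest p that rose in Ccnd1-Ikk2ca and met 3 conditions. The RefSeq start lay within the first 100 bases of a GENCODE transcript of the gene, at least 100 bases before it were free of annotated exons, and these held a match. As a match was required, the stretches do not show how often such genes lack one. Ndufa1, Ndufv3, Cox7c, Cox6b1 and Sdhd, with smaller p and a match in the whole window, did not meet these conditions. Sequences read 5′ to 3′ towards the gene, and capitals mark matches to the SP1 motif (GGGCGG, or CCGCCC on the other strand) and the ETS motif (CCGGAAG, or CTTCCGG). Ndufv2 (chr17:66101560-66101809, minus strand) held 2 SP1 matches, Ndufb6 (chr4:40279422-40279671, minus) 1 ETS and 2 SP1 matches, Sdhb (chr4:140961021-140961202, plus) 3 SP1 matches, Uqcrh (chr4:116075072-116075268, minus) 1 ETS match, Cox7a2 (chr9:79759879-79760103, minus) 1 SP1 match, and Atp5e (chr2:174464106-174464351, minus) 1 ETS and 2 SP1 matches.
Ndufv2: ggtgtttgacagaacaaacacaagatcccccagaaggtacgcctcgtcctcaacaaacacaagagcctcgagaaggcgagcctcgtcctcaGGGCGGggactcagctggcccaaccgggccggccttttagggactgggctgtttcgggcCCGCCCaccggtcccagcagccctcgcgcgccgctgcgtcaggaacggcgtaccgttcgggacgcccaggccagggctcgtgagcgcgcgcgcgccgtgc
Ndufb6: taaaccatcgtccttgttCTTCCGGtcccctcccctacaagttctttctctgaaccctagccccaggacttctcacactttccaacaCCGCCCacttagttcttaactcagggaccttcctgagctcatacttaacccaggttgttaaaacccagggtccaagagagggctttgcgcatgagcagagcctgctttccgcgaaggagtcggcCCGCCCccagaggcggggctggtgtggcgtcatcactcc
Sdhb: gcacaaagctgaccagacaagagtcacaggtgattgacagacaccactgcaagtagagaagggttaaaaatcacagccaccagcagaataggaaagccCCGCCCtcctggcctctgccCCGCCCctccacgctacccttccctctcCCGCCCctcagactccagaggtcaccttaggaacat
Uqcrh: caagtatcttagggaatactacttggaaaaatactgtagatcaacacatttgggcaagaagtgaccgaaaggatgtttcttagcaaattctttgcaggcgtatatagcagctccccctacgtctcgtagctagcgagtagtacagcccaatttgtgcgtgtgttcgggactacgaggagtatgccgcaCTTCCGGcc
Cox7a2: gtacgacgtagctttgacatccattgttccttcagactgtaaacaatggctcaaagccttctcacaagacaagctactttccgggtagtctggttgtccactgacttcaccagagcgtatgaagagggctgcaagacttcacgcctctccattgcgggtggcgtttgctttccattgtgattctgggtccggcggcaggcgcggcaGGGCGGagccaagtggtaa
Atp5e: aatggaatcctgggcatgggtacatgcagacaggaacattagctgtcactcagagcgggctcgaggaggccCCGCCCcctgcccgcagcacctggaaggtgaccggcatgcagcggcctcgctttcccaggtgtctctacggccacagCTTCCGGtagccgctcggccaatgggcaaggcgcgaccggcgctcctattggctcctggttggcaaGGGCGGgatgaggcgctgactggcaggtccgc
A match is a description of these letters and not a bound site. The whole window of Sdhb also held the NRF1 and ETS motifs, outside the stretch shown. The stretches before Uqcrfs1, Cox5b, Ndufv1, Ndufv3 and Cox6b1, whose p-values were smaller than those of the genes shown for their groups, held no match to any of the motifs. Those before Atp5g3, Ndufc2, Atp5o and Atp5g2 held none either.

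In Ikk2ca(D) against Control(D), Uqcrq was the 1 gene that rose by edgeR and 0 fell. Among all genes, 0.398% rose and 0.437% changed either way by edgeR. DESeq2 called 6 rises, and its share over all genes is not given here. Uqcrq, a small subunit of complex III, had 112, 115, 120 and 125 CPM in Ikk2ca(D), against 50.5, 72.9, 73.0 and 74.1 CPM in Control(D), and rose by 0.80 (SE 0.17, adjusted p = 0.0331). The groups did not overlap, but the call was lost when any 1 of Ikk2ca(D) replicates 2 to 4 or of the 4 controls was left out, with adjusted p up to 0.136, and with Xist as a covariate. The median over the 92 genes was 0.24, 80 were positive, and 30 had an unadjusted p under 0.05, which is 32.6% against 13.3% of all genes. Complex III had the highest median, 0.40, and the Ndufaf genes the lowest, -0.11.

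In Ccnd1 against Control(D) 0 of the 92 genes rose or fell, where 1 of all genes (0.00653%) changed. DESeq2 called 0 of them as well, and 6 (6.52%) had an unadjusted p under 0.05, close to the 6.29% of all genes. The median was 0.17 and 79 were positive. Ndufb6, a membrane arm subunit of complex I, had the smallest p, with a log2 fold change of 0.49 (adjusted p = 0.739).

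Set against the single transgenes directly, Ccnd1-Ikk2ca differed from Ccnd1 in 3 genes by edgeR and 13 by DESeq2, and from Ikk2ca(D) in 0 by edgeR and 1 by DESeq2. Against Ccnd1, where 6.2% of all genes changed and 2.81% rose, Atp5mpl rose by 0.75 (SE 0.17, adjusted p = 0.0142), Uqcrfs1 by 0.52 (SE 0.14, adjusted p = 0.0307) and Cox6a2 by 2.62 (SE 0.62, adjusted p = 0.0154). Uqcrfs1 had 69.2 to 88.1 CPM in Ccnd1-Ikk2ca and 52.9, 55.3, 57.6 and 57.9 CPM in Ccnd1, without overlap. The median over the 92 genes was 0.27. The count moved with single libraries, to 0 without Ccnd1 replicate 1, 1 without Ccnd1 replicate 2, 5 without Ccnd1-Ikk2ca replicate 2, 6 without Ccnd1 replicate 4 or without Ikk2ca(D) replicate 1 or 2, and 8 without Ccnd1-Ikk2ca replicate 1. Against Ikk2ca(D), where 0.424% of all genes changed, the median was 0.20 and 18 genes (19.6%, against 11.3% of all) had an unadjusted p under 0.05. The interaction of the transgenes, which asks whether the combined group differs from the sum of their separate effects, gave 0 changed genes (0.0261% of all genes changed), 1 with an unadjusted p under 0.05 and a median of 0.06; DESeq2 called 0.

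In MMSET-Ikk2ca against Control(M) 3 of 91 genes rose and 0 fell, where 3.5% of all 15416 genes rose and 6.91% changed. The median was 0.13, 66 of 91 were positive, and 21 (23.1%) had an unadjusted p under 0.05, near the 21.8% of all genes. The medians were 0.01 in the complex I core, 0.16 in the other complex I subunits, -0.07 in the Ndufaf genes, 0.25 in complex II, 0.18 in complex III, 0.19 in complex IV and 0.06 in complex V.

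Uqcrfs1, which had also risen in Ccnd1-Ikk2ca, had 71.0 to 87.9 CPM in MMSET-Ikk2ca (median 77.5), against 44.4, 44.5, 51.8 and 57.4 CPM in Control(M). It rose by 0.66 (SE 0.17, adjusted p = 0.0248), and all 6 libraries lay above all controls. Atp5j, which encodes coupling factor 6 of the ATP synthase stalk (chromosome 16, 84827866 to 84835625, minus strand), had 86.2 to 97.7 CPM in MMSET-Ikk2ca (median 89.0), against 63.5, 65.6, 68.3 and 77.8 CPM in Control(M), and rose by 0.38 (SE 0.11, adjusted p = 0.0359). The third gene, Cox6a2, is described with the isoforms below. Among the groups without a rise, Sdhc had 22 to 34.6 CPM in MMSET-Ikk2ca (median 32.1) and 21.8, 22.6, 23.5 and 26.5 CPM in Control(M) (log2 fold change 0.37, adjusted p = 0.165). Ndufa3, a membrane arm subunit of complex I, had 54.6 to 73.5 CPM in MMSET-Ikk2ca (median 64.6) and 40.1 to 58.6 CPM in Control(M) (0.41, adjusted p = 0.0838). These groups overlapped, as did those of the complex I core subunit of smallest p, Ndufs8, at 50.9 to 68.9 CPM in MMSET-Ikk2ca and 58.2 to 82.6 CPM in Control(M) (-0.24, adjusted p = 0.301), and of the assembly factor Ndufaf3, at 6.98 to 11.7 CPM in MMSET-Ikk2ca and 9.70 to 13.0 CPM in Control(M) (-0.27, adjusted p = 0.452). The count of 3 fell to 0 without Control(M) replicate 1 and to 1 without Control(M) replicate 3 or 4 or with replicates 1 to 4 of each group. Uqcrfs1 was lost without Control(M) replicate 1 or 3, and Atp5j without any 1 of MMSET-Ikk2ca replicates 1, 2, 5 and 6 or Control(M) replicates 1, 3 and 4.

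As in the other cohort, markers of other blood cells had lower sums in the combined group, and their part in these values was not tested: B cell markers summed to 184 to 297 CPM in MMSET-Ikk2ca against 348 to 684 in Control(M), T and NK markers to 0.500 to 2.53 against 8.01 to 21.7, neutrophil markers to 0.759 to 12.7 against 39.4 to 187, monocyte and macrophage markers to 43.7 to 71.7 against 97.1 to 139, and erythroid markers to 0.0373 to 2.21 against 3.11 to 10.3. Plasma cell markers summed to 4431 to 6388 CPM in MMSET-Ikk2ca against 31071 to 41705 in Control(M). Of these 8 markers 4 fell and the others did not, where 6.91% of all genes changed. Ncr1, Klrb1c and the erythroid marker Car1 were at 0 in MMSET-Ikk2ca, and Car1 was also at 0 in Control(M).

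Ikk2ca(M) alone had the higher values of this cohort. Against Control(M) 0 of 91 genes passed the threshold, where 0.649% of all genes changed, but 82 were positive, the median was 0.31, and 38 (41.8%) had an unadjusted p under 0.05, against 12.4% of all genes. DESeq2 called 6 of them. Summed over all 95 genes the level was 5183 ± 338 CPM in Ikk2ca(M) and 4200 ± 245 CPM in Control(M), with all 4 Ikk2ca(M) libraries above all controls (ratio 1.23). Atp5j came nearest, at 91.2 to 107 CPM in Ikk2ca(M) and 63.5 to 77.8 CPM in Control(M) (0.49, SE 0.12, adjusted p = 0.0559), followed by Ndufb9 (0.62, adjusted p = 0.0974) and Cox5b (0.52, adjusted p = 0.110). In this comparison, 1 gene rose without MMSET replicate 1 or 3 and 2 without Control(M) replicate 2.

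In MMSET against Control(M), where again 0.649% of all genes changed, 0 of 91 genes passed, 18 (19.8%, against 13.3% of all) had an unadjusted p under 0.05, and the median was 0.17; DESeq2 called 3, and 2 rose without MMSET replicate 1. Atp5j again had the smallest p, with a log2 fold change of 0.44 (adjusted p = 0.0987). The comparisons of MMSET-Ikk2ca, Ikk2ca(M) and MMSET share the 4 Control(M) libraries, so the values of a gene in these comparisons are not independent.

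Against Ikk2ca(M), the combined group had lower values: the median over 91 genes was -0.21 and 77 were negative. None passed, where 0.96% of all genes changed, and 19 (20.9%, against 12.5% of all) had an unadjusted p under 0.05; DESeq2 called 7 lower and 1 higher, and 3 fell without MMSET-Ikk2ca replicate 4. Ndufb2, a membrane arm subunit of complex I, had the second smallest p after Cox6a2, at 16.5 to 19.7 CPM in MMSET-Ikk2ca and 21.6 to 30.1 CPM in Ikk2ca(M) (-0.52, adjusted p = 0.0658). Against MMSET, where 1.58% of all genes changed and 0.642% rose, Cox6a2 was the 1 gene that rose, the median was -0.08 and 59 genes were negative. The interaction of MMSET and Ikk2ca had a median of -0.40, with 81 of 91 genes negative and 36 (39.6%) at an unadjusted p under 0.05, against 10.4% of all genes. In it 0 genes passed, where 0.0973% of all genes changed, and DESeq2 called 6 lower and 1 higher. Atp5g1 had the smallest p (-0.78, SE 0.17, adjusted p = 0.0776), at 43.8 to 54.5 CPM in MMSET-Ikk2ca, 58.9 to 76.2 in Ikk2ca(M), 60.6 to 72.9 in MMSET and 47.2 to 59.0 in Control(M). Its level was thus higher in each group with 1 transgene, with no overlap between either of them and MMSET-Ikk2ca or, for MMSET, Control(M). Short transcripts in general moved the same way in this interaction, with a median of -0.23 over 1348 genes under 513 bases, and the part of length in the result was not tested.

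**Figure D4:**
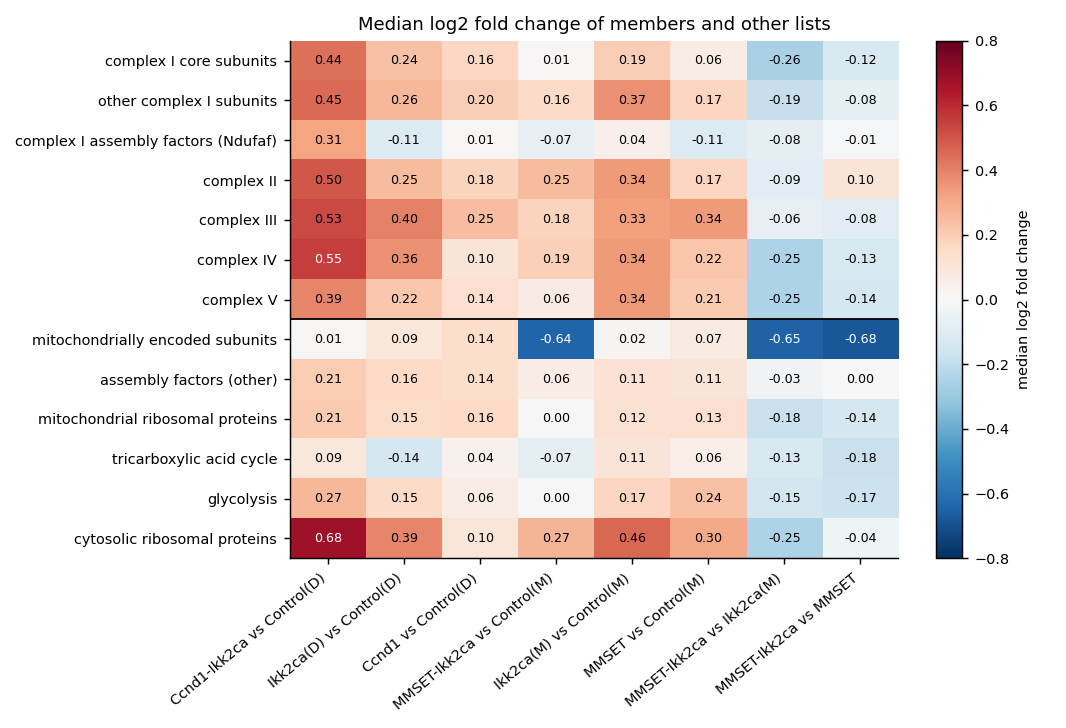
Median log2 fold change of the 7 groups of genes by role and of 6 further lists (rows) in 8 comparisons (columns), with each median printed in its cell. The row of complex V shows 0.39 in Ccnd1-Ikk2ca against Control(D), and 0.06 in MMSET-Ikk2ca and 0.34 in Ikk2ca(M) against Control(M).

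Between the combined groups of the cohorts, 3 genes rose and 0 fell in Ccnd1-Ikk2ca against MMSET-Ikk2ca, where 1.57% of all 17116 genes rose and 2.49% changed. All 3 belong to complex V. Atp5a1, the alpha subunit of its catalytic head, had 160 to 256 CPM in Ccnd1-Ikk2ca (median 194.9) and 136 to 161 CPM in MMSET-Ikk2ca (median 145.6), and rose by 0.48 (SE 0.11, adjusted p = 0.0104). Atp5h, a subunit of the outer stalk, had 73.7 to 120 CPM in Ccnd1-Ikk2ca and 55.1 to 78.8 CPM in MMSET-Ikk2ca and rose by 0.41 (SE 0.11, adjusted p = 0.0314). Atp5b had 283 to 432 CPM in Ccnd1-Ikk2ca and 242 to 305 CPM in MMSET-Ikk2ca and rose by 0.37 (SE 0.10, adjusted p = 0.0353). The groups overlapped slightly in all 3. Atp5a1 also stood at 197 to 226 CPM in Control(D) and 139 to 195 CPM in Control(M), a log2 difference of 0.40 (SE 0.13, adjusted p = 0.341), the smallest p of the 92 genes between the controls, and it did not rise in Ccnd1-Ikk2ca against Control(D). With only these 12 libraries in the fit 0 genes rose. Of the 3 rises, 1 was left without Ccnd1-Ikk2ca replicate 3 or 6 or MMSET-Ikk2ca replicate 1 or 6, and 6 rose without Ccnd1-Ikk2ca replicate 1.

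The controls of the cohorts were closer: 0 of 92 genes passed in Control(D) against Control(M), where 0.0409% of all genes changed, 4 (4.35%, against 10.4% of all) had an unadjusted p under 0.05, and DESeq2 called 0. The median was -0.15 with 72 negative. A direct test of the cohorts, whether Ccnd1-Ikk2ca over Control(D) differed from MMSET-Ikk2ca over Control(M), was added after the other results were known. It gave 0 genes past the threshold, where 0.175% of all genes changed, although 86 of 92 differences were positive, their median was 0.32 against 0.05 for all genes, and 19 (20.7%, against 11.2% of all) had an unadjusted p under 0.05. DESeq2 called 1. Ndufb2 had the smallest p, with a difference of 0.63 (SE 0.19, adjusted p = 0.192). The larger count of rises in the D cohort is therefore not shown, for any single gene, to be a difference between the cohorts. Genes with short transcripts had a median difference of 0.28 in this test (1599 genes).

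Several subunits of complex IV exist as isoforms tied to tissues. Cox6a2, the form of heart and skeletal muscle (chromosome 7, 128205435 to 128206387, minus strand), was highest in MMSET-Ikk2ca, with 9.07, 22.5, 26.9, 32.5, 32.9 and 33.9 CPM, against 1.99 to 9.21 in Ikk2ca(M), 1.31 to 9.52 in MMSET and 2.54 to 9.29 in Control(M). Thus 1 MMSET-Ikk2ca library overlapped the other groups, and 5 lay above all of them. Cox6a2 rose by 2.16 against Control(M) (SE 0.54, adjusted p = 0.0217) and by 2.53 against MMSET (SE 0.55, adjusted p = 0.0255), and its 2.28 against Ikk2ca(M) missed the threshold (SE 0.55, adjusted p = 0.0525). The first call was lost without Control(M) replicate 1, 2 or 4, and the second with Xist as a covariate and without MMSET-Ikk2ca replicate 1 or 2 or MMSET replicate 2, 3 or 4.

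In the D cohort Cox6a2 was at 1.38 to 23.5 CPM in Ccnd1-Ikk2ca (median 6.80), 5.63 to 12.1 in Ikk2ca(D) and 0.562 to 1.92 in Ccnd1, against 1.44 to 5.57 in Control(D). Its 1.56 in Ccnd1-Ikk2ca against Control(D) did not pass (adjusted p = 0.0911), and the rise against Ccnd1 was lost without Ccnd1 replicate 1 or 2. The common form Cox6a1 moved the other way without passing: it had 38.9 to 89.8 CPM in Ccnd1-Ikk2ca and 70.2 to 75.8 in Control(D) (-0.25, adjusted p = 0.369), and 41.7 to 76.4 CPM in MMSET-Ikk2ca and 68.8 to 75.9 in Control(M). In MMSET-Ikk2ca 5 of 6 libraries lay below all controls.

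**Figure D5:**
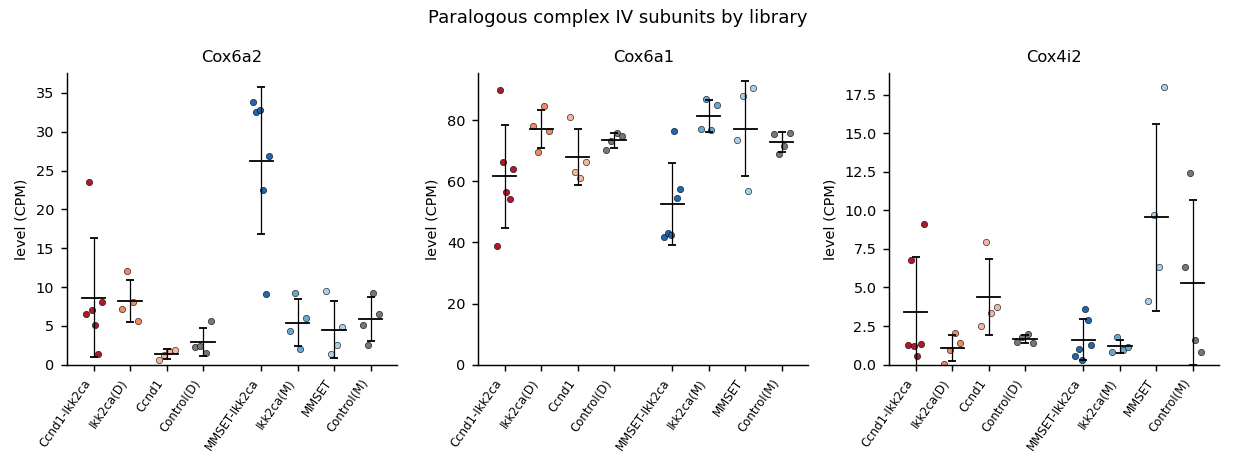
CPM of the complex IV isoforms Cox6a2, Cox6a1 and Cox4i2 in each library (1 point each), by group, with the group mean as a line and the SD as a bar. Cox6a2 reached 22.5 to 33.9 CPM in 5 of 6 MMSET-Ikk2ca libraries, against 2.54 to 9.29 CPM in Control(M).

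For subunit 4, the general form Cox4i1 had 287 to 339 CPM in Ccnd1-Ikk2ca and 210 to 252 in Control(D), and rose by 0.39 (adjusted p = 0.0221). Cox4i2, the form of lung and low oxygen, ranged widely, from 4.15 to 18 CPM in MMSET, 0.325 to 3.59 in MMSET-Ikk2ca and 0.844 to 1.80 in Ikk2ca(M), against 0.840 to 12.4 in Control(M), and did not pass in any comparison. The testis form Cox6b2 stayed at or under 0.754 CPM and the muscle form Cox7a1 at or under 0.374 CPM in all libraries, while their general partners Cox6b1 and Cox7a2 had 82.0 to 133 and 63.9 to 99.6 CPM in Ccnd1-Ikk2ca, against 63.9 to 79.4 and 43.1 to 56.1 in Control(D). Both rose, by 0.55 (adjusted p = 0.0258) and 0.64 (adjusted p = 0.0287), as did the supercomplex factor Cox7a2l by 0.54 (adjusted p = 0.0443).

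Cox7b2, a testis form, was at 0 in all Control(D) and Ccnd1 libraries and at 0 to 1.11 CPM in Ccnd1-Ikk2ca and 0 to 0.706 in Ikk2ca(M), all near the limit of detection. Its general form Cox7b stood at 25.5 to 59.8 CPM in Ccnd1-Ikk2ca and 27.4 to 31.0 in Control(D) (0.56, adjusted p = 0.0619), and Cox8a, the detected form of subunit 8, at 63.6 to 124 and 69.3 to 77.1 CPM (0.35, adjusted p = 0.164). Ndufa4l2, the low-oxygen partner of Ndufa4, lay between 0 and 2.41 CPM in all libraries (1.08 in Ccnd1-Ikk2ca against Control(D), SE 1.24, adjusted p = 0.671).

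Other genes of respiration did not move as one with the nuclear subunits. In Ccnd1-Ikk2ca against Control(D), 0 of the 13 mitochondrially encoded subunits passed and their median was 0.01, with sums of 5525 to 9129 CPM in Ccnd1-Ikk2ca and 5339 to 8042 in Control(D). In MMSET-Ikk2ca against Control(M) 9 of 13 fell, with a median of -0.64 and sums of 4624 to 6129 CPM in MMSET-Ikk2ca, against 6787 to 9942 in Control(M), without overlap. The complex I subunits mt-Nd2 and mt-Nd5 fell by 1.06 (SE 0.19, adjusted p = 0.00212) and 0.79 (SE 0.15, adjusted p = 0.00349). The fall was also seen against MMSET, in 10 of 13, and against Ikk2ca(M), in 5 of 13. Among all genes, 6.91% changed against Control(M), 1.58% against MMSET and 0.96% against Ikk2ca(M).

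Of 39 further assembly factors 4 rose in Ccnd1-Ikk2ca against Control(D), among them Sdhaf1, which helps to mature the iron-sulfur subunit of complex II (1.44, SE 0.27, adjusted p = 0.00245), and Uqcc3, a complex III factor (0.74, adjusted p = 0.0159). Of 78 mitochondrial ribosomal protein genes 8 rose and 1 fell, with a median of 0.21. Of 16 genes of the tricarboxylic acid cycle 1 rose, Dlat of the pyruvate dehydrogenase complex (0.72), and 1 fell, Mdh2, the mitochondrial malate dehydrogenase (-0.67), with a median of 0.09. Of 16 glycolysis genes 1 fell, Eno1 (-0.45), with a median of 0.27, and of 14 regulators of mitochondrial gene expression 1 rose, the RNA-binding protein Slirp (0.78, adjusted p = 0.0428), with a median of 0.06. The 6 tested carriers and cytochrome c had a median of 0.26 and 0 changes. Of all genes, 5.83% rose and 11.1% changed either way in this comparison. The counts changed in these lists are close to the latter share or rest on few genes.

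In MMSET-Ikk2ca against Control(M) the medians of mitochondrial and cytosolic ribosomal protein genes lay nearer to 0 than in Ccnd1-Ikk2ca against Control(D). The medians were 0.06 for assembly factors (0 changed), -0.07 for the tricarboxylic acid cycle (0 changed), -0.05 for the regulators (0 changed), 0.00 for mitochondrial ribosomal proteins (1 rose, 2 fell) and 0.27 for cytosolic ribosomal proteins (0 rose, 1 fell). Cycs, which encodes the electron carrier cytochrome c, rose by 0.67 (SE 0.16, adjusted p = 0.0163), and Slc25a4, an ATP and ADP carrier of the inner membrane, fell by 3.74 (adjusted p = 0.000866). Of 16 glycolysis genes 2 rose and 2 fell. Among all genes, 3.5% rose and 6.91% changed either way in this comparison.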

How the data were processed

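RNA of 36 libraries was measured with an oligo-dT primed, template-switch protocol and Nextera XT, per the labels' protocols. The authors demultiplexed the reads with bcl2fastq 2.20.0.422 and used Salmon 1.3.0, DESeq2 1.32.0 and the build GRCm38, per the submitters' processing notes. The deposited tables give, per the file headers, estimated counts (expected counts, which need not be whole) and TPM for 140825 transcripts. Counts were summed to 54203 genes with the mouse GENCODE release M21, and 865 unmatched transcripts, with 0.0636% to 0.134% of reads, were left out. Strand was not used, so overlapping and antisense genes may share reads, and with no molecular identifiers PCR copies stay in the counts.

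The rounded gene sums went into edgeR 4.0.16 (R 4.3.3, TMM, filterByExpr, robust two-sided quasi-likelihood test, Benjamini-Hochberg adjustment over all genes), with 1 fit of 18 libraries per cohort (15323 genes in D, 15416 in M) and 1 of all 36 (17116) across cohorts. The SE is the absolute log2 fold change over the square root of F. There were 15 comparisons, 1 of them added after the others were known. The test was checked on simulated counts. Alternatives were DESeq2 1.42.0, other size factors, no filter, immunoglobulin genes left out, an offset for transcript length, a replicate block, Xist as a covariate, other sets of libraries and each library left out in turn. Sums, motifs and plots used pandas 2.3.3, numpy 2.4.6, scipy 1.17.1 and matplotlib 3.10.9 under Python 3.11.15.

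The genes and lists were chosen with earlier results of these data known. Named are all genes that passed in a comparison with up to 10 of them, otherwise the pair of smallest p in each role, the isoform pairs and the untested genes. Identical libraries were looked for, and 0 pairs were found.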

Additional observations from a re-analysis of the deposited data

Results flagged for a closer look

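In 200 checks of a library against its group, 11 values stood apart by Dixon's criterion at 95%, where chance gives about 1 in 20. Control(M) replicate 1 was low for the summed complex I core, at 310.8 CPM against 343.5 to 346.7 in the other 3 controls. MMSET-Ikk2ca replicate 5 was high for Ndufa1, at 260.3 CPM against 183.5 to 207.8. Ccnd1-Ikk2ca replicate 2 was high for Cox6a2, at 23.5 CPM against 1.38 to 8.07 in the other 5 libraries.

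Among the assembly factors, Ndufaf4 was low in MMSET replicate 1 (5.21 CPM against 9.21 to 9.42). Ndufaf3 was high in Ccnd1 replicate 1 (13.5 CPM against 10.9 to 11.3) and low in Ikk2ca(M) replicate 1 (11.7 CPM against 12.8 to 13.1).

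The other 5 concern genes near the limit of detection, where a few reads set 1 library apart. Cox6b2 had 0.471 CPM in Control(D) replicate 4 (0 to 0.0463 in the others) and 0.708 CPM in MMSET-Ikk2ca replicate 3 (0 to 0.249). Cox7a1 had 0.0826 CPM in MMSET replicate 1, and Cox7b2 had 0.225 CPM in MMSET replicate 2 and 0.140 CPM in Control(M) replicate 1, with 0 in the other libraries of these groups.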

How the results depend on the processing

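None of the 49 calls of a gene in a comparison changed sign under any alternative run, leave-one-out fits included. Genes near 0 in Ccnd1-Ikk2ca against Control(D) did, most often Ndufaf8, under 10 alternatives. Atp5k did so under 5, Ndufaf3 under 4, and Atp5a1, Sdha and Ndufa4 under 1 each. For the 23 calls of the genes named by the rule, 26 values under other settings and 53 leave-one-out values were no longer past the threshold, while 181 and 343 stayed. Counts of genes that rose or fell moved more, and the shares of all genes under these alternatives are not given. Depth limits the isoforms Cox6b2, Cox7a1 and Cox7b2, at or under 1.11 CPM in every library.

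The 38 rises in Ccnd1-Ikk2ca against Control(D) became 22 with replicates 1 to 4 only and 13 to 44 when 1 library was left out. Whether the replicate numbers pair the samples is not settled. For same-numbered libraries 48 correlations ran from -0.114 to 0.164, and 7 exceeded 0.1. No values of differently numbered libraries are given beside them. With replicate block the count was 17, and with this block Ikk2ca(D) against Control(D) and MMSET-Ikk2ca against MMSET had 0 rises, MMSET-Ikk2ca against Ikk2ca(M) had 1 fall and Ccnd1-Ikk2ca against MMSET-Ikk2ca had 1 fall.

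Under DESeq2, rises numbered 6 in Ikk2ca(D) and 6 in Ikk2ca(M) against control, 3 in MMSET, 1 in Ccnd1-Ikk2ca against Ikk2ca(D), 13 against Ccnd1 and 6 against MMSET-Ikk2ca, 1 in MMSET-Ikk2ca against Ikk2ca(M), 1 in the interaction of MMSET and Ikk2ca, and 1 in the difference between cohorts. DESeq2 falls numbered 2 in MMSET-Ikk2ca against Control(M), 7 against Ikk2ca(M), 4 against MMSET, 6 in that interaction and 1 in Ccnd1-Ikk2ca against MMSET-Ikk2ca. The shares of all genes that DESeq2 called are not given, so these counts have no background beside them.

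With all 36 libraries in 1 fit, rises numbered 2 in Ikk2ca(D), 1 in Ikk2ca(M), 8 in Ccnd1-Ikk2ca against Ccnd1 and 1 in MMSET-Ikk2ca against Ikk2ca(M), with 4 falls in the last. MMSET-Ikk2ca against Ikk2ca(M) also had 1 rise with immunoglobulin genes left out, and 1 rise and 1 fall with the length offset. With Xist as a covariate the rises in Ikk2ca(D) and in MMSET-Ikk2ca against MMSET were 0. Ccnd1-Ikk2ca against MMSET-Ikk2ca had 1 rise without the low-count filter, 0 with only these groups in the fit and 1 with replicates 1 to 4, which also left 1 rise in MMSET-Ikk2ca against Control(M). The causes were not tested.

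When 1 library was left out, rises ranged over 0 to 2 in Ikk2ca(D), Ikk2ca(M) and MMSET, 0 to 4 in MMSET-Ikk2ca against Control(M), 0 to 1 against Ikk2ca(M) and MMSET, 0 to 8 in Ccnd1-Ikk2ca against Ccnd1 and 1 to 6 against MMSET-Ikk2ca, and falls over 0 to 2, 0 to 3, 0 to 2 and 0 to 1 in MMSET-Ikk2ca against Control(M), Ikk2ca(M) and MMSET and in Ccnd1-Ikk2ca against MMSET-Ikk2ca.

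Without Sdha the complex II ratio was 1.43 in Ccnd1-Ikk2ca and 1.18 in Ccnd1, over Control(D). Scaled to non-immunoglobulin reads, complex V was at 1.16 in Ikk2ca(D) and 1.01 in Ccnd1. In the 250 bases before the start the YY1 share was 1.32%, below the 5.18% of all genes.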
